A study of Homo sapiens with 2 samples.

Results

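MIR155HG lies on chromosome 21 and is the gene whose RNA carries the microRNA miR-155. The accessible chromatin described here is that of GM12878, a human lymphoblastoid line made by transforming B cells with Epstein-Barr virus, with no treatment given. It was measured by ATAC-seq, in which a transposase inserts sequencing adapters into open DNA, in 2 replicates of 50000 cells each. The sample titles name replicates and do not say whether they were separate cultures. Both replicates form 1 group, and 1 list of 23612 regions was deposited for them. The regions at this locus are the 18 whose midpoint lies in a 300 kb window around the gene (hg19, chr21:26800000-27100000), and the rest of chromosome 21 held 200. The locus was chosen by region width, since its widest region had been seen to be the widest on chromosomes 1 to 22 and X. Widths, covered bases and counts of broad regions are therefore descriptions without a test.

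The MIR155HG transcript, first known as BIC, is a long non-coding RNA whose last exon folds into the hairpin that is cut to mature miR-155. The microRNA is best known from activated B and T cells, where it pairs through its seed with the messenger RNAs of regulators such as PU.1 and SHIP1. Signals from the B cell receptor, and LMP1, a membrane protein of Epstein-Barr virus, are known to raise MIR155HG transcription through AP-1 and NF-kB. These points are background, since the list holds no RNA, no protein binding and no values per replicate. No error between replicates can therefore be given.

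The mature microRNAs of the locus are shown because they are the product for which the gene is known. The sequences are RefSeq's with the build GRCh38.p14, plus strand of chromosome 21, and capitals mark the seed, bases 2 to 8.
hsa-miR-155-5p: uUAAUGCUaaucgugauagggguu
hsa-miR-155-3p: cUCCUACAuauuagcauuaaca
The 5p strand, of 24 bases, is the arm that is loaded in most cells, and the 3p strand has 22 bases. Of the 2370 mature human names in the RefSeq table, 0 others shared the seed of the 5p strand and 0 others that of the 3p strand.

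The promoter is shown because an accessible region spans it. It was taken from RefSeq (GRCh38.p14, chr21:25561895-25562194, plus strand), 250 bases before to 50 bases after the start of the gene. Capitals mark matches to the AP-1 motif TGANTCA and to the TATA motif TATAAA.
MIR155HG promoter: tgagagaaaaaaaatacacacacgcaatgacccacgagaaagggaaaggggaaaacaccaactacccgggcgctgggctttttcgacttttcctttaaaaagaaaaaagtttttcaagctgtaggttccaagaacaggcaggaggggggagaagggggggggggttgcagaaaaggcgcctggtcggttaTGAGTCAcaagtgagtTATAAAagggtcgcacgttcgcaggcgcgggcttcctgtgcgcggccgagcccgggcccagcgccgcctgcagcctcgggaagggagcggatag
The AP-1 match begins 60 bases before the start and the TATA match 44 bases before it, both on the plus strand. On either strand, TGANTCA is held by 7.76% and TATAAA by 12.0% of the 27305 RefSeq promoters of this length. The stretch has a GC content of 56.0% and 20 CpG dinucleotides, against medians of 58.3% and 14 over all these promoters. Its composition is uneven along its length. The 150 bases farther from the gene have a GC content of 45.3% and 5 CpGs, and the 150 bases that reach into it 66.7% and 15.

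Of the other motifs searched on both strands, the looser NF-kB motif (GGG, any 5 bases, CC) matched once, on the minus strand across the start, and 58.0% of promoters hold it. The stricter NF-kB motif (GGG, any 2 bases, TTTCC), which is contained in the looser one, had 0 matches, and 1.92% of promoters hold it. A motif of the interferon regulatory factors (GAAA, any 2 bases, GAAA) matched once at 213 bases before the start and is held by 3.65%. The E-box CACGTG (7.43% of promoters), the SP motif GGGCGG (44.6%) and GAGGAAGT of PU.1 (2.54%) had 0 matches. A match is a run of letters and not a bound site, and 0 matches say only that these letters are not in this window.

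The promoter of MIR155HG was accessible in this line. One region of 1244 bp (chr21:26933843-26935086) spans the start of the gene, which runs on the plus strand from 26934457 to 26947480 (13024 bp). It reaches 614 bp before the start and 629 bp past it. The stretch from 250 bases before to 50 after the start in hg19 lies wholly inside it. Its score was 1000. The score is the authors' whole number for each region, runs from 541 to a cap of 1000 over the list, and has no scale named in the sources used here. At the cap were 12 of the 18 regions of the locus, against a background of 55.0% of all 218 regions on chromosome 21.

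Accessible chromatin went on through most of the gene. The gene body beyond 1 kb from the start held 5 regions, and regions covered 67.7% of the whole gene from start to end. The first region of the body (chr21:26935443-26936402) was 960 bp wide and had a score of 694, the lowest of any region that touches the gene. It begins 356 bp after the promoter region. A stretch of 1760 bp without a region follows, the longest inside the gene.

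The middle of the gene held a pair of broad regions. The first (chr21:26938163-26940925) was 2763 bp wide with a score of 1000, and the next (chr21:26941559-26944301) was 2743 bp wide with a score of 929. Only 633 bp separate them. They take ranks 3 and 4 by width among the 218 regions of chromosome 21. When the gene is divided into 4 parts of 3256 bp, the second and the third part were covered to 84.9% and 81.9%, and the first and the last to 48.8% and 55.2%. Coverage was thus higher in the middle of the gene than at either end.

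The second of this pair joins a large width to a score under the cap. Of the 765 regions of 2 kb or more on chromosomes 1 to 22 and X, 4 had a score below 1000, and it is one of them. It was the second widest of all regions below the cap on these chromosomes. On the rest of chromosome 21 the widest region below the cap measured 1317 bp.

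Toward its 3' end, where the microRNA hairpin is known to lie, the gene held a pair of narrower regions. The first (chr21:26944809-26945830) was 1022 bp wide with a score of 1000. The last region of the gene (chr21:26945941-26946639) was 699 bp wide with a score of 915, and 110 bp lie between it and the one before. That gap is the shortest between any neighbours at the locus. A stretch of 2341 bp without a region then takes in the end of the gene. Whether a region lies in an exon or an intron was not analysed here.

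The broadest region lies just past the gene. It begins 1500 bp after the end of MIR155HG and spans 5301 bp (chr21:26948981-26954281), with a score of 1000. It is the widest of 23444 regions on chromosomes 1 to 22 and X, where the next measured 4661 bp, and it is 7.01 times their median width. In the whole list of 23612 it ranks 3. The 2 wider regions, of 28902 and 5973 bp, are among the 168 outside these chromosomes and lie on sequences that have no set position in the assembly. On chromosome 21 the next widest region was 2781 bp, so that the broadest is 1.91 times as wide. This region alone made up 21.9% of the accessible bases of the 300 kb window. After a gap of 372 bp it is followed by a region of 1452 bp (chr21:26954654-26956105), also with a score of 1000. In the 10 kb after the gene 67.5% of the bases were inside regions, close to the share within the gene itself. In the 10 kb before the gene it was 6.14%, all from the promoter region.

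**Figure D1:**
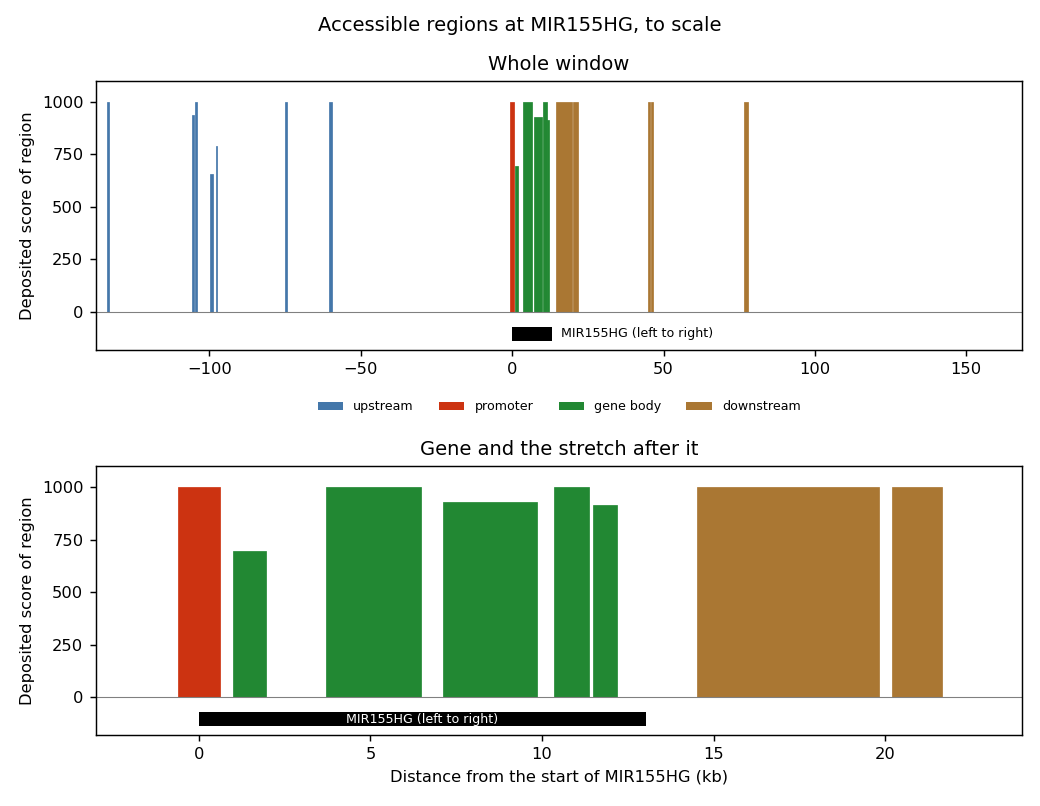
Accessible regions at MIR155HG, drawn to scale by distance from the start of the gene (x axis, kb), with the deposited score as height (y axis, no unit). The upper panel shows all 18 regions of the window and the lower one the gene (black bar) with the stretch after it. The 8 regions from the promoter to the end of the second downstream region cover 72.7% of 22.3 kb, and the broadest of them, of 5301 bp, begins past the end of the gene.

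The flanks were sparser and their regions narrower. Upstream of the promoter, 7 regions lie between 59.4 and 133 kb before the gene and measure 493 to 1220 bp, with a median of 602 bp. They covered 3.74% of the upstream flank. The nearest to the gene is the widest of them (chr21:26873866-26875085, 1220 bp, score 1000), and it is parted from the promoter region by 58.8 kb without a region, the longest gap between neighbours within the window. A group of 4 lies about 100 kb before the gene, from chr21:26828835-26829507 (673 bp, score 940) and chr21:26829623-26830224 (602 bp, score 1000) to chr21:26834696-26835510 (815 bp) and chr21:26836549-26837132 (584 bp). The last pair had scores of 656 and 791. The remaining 2, of 493 bp (chr21:26800822-26801314) and 600 bp (chr21:26859355-26859954), had scores of 1000.

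Beyond the stretch that adjoins the gene, the downstream flank held 3 regions, all with a score of 1000. Those at chr21:26979256-26980152 (897 bp) and chr21:26980310-26981047 (738 bp) lie 157 bp apart and 31.8 kb past the gene. The last (chr21:27011106-27012468) measured 1363 bp and lies 63.6 kb past the gene. No region is listed over the 94.1 kb that follow it. In RefSeq's order of genes, LINC00515 (a long non-coding RNA), MRPL39 (a protein of the mitochondrial ribosome) and JAM2 (a junctional adhesion molecule) come next after MIR155HG. The 5 entries before MIR155HG are non-coding RNAs or pseudogenes, LINC00158 among them. No region was assigned to these genes, since their positions in hg19 were not used here. Whether a region of the downstream flank lies at the start of one of them was therefore not examined.

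The 6 regions with a score below the cap lay upstream or in the gene body. They were 3 of the 7 upstream regions and 3 of the 5 in the gene body. The promoter region and 5 of 5 downstream regions had a score of 1000. Over all 218 regions of chromosome 21 the share at the cap was 55.0%. Each place holds few regions, so no pattern by place is read from these counts. At the locus, regions at the cap had a median width of 1121 bp and those below it 757 bp. On the rest of chromosome 21 these medians were 952.5 bp for 108 regions and 631.5 bp for 92.

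At the edges of the window, the first region inside it has its midpoint 1.07 kb within the border and is 493 bp wide. The nearest region outside on that side lies 6.18 kb before the border (chr21:26793238-26794394, 1157 bp). The last region inside has its midpoint 88.2 kb within the other border, and the nearest outside lies 7.64 kb past it (chr21:27106571-27108700, 2130 bp, the sixth widest of the chromosome). All 4 had a score of 1000.

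Set against the rest of chromosome 21, the locus was dense in regions. The window makes up 0.623% of the length of the chromosome and held 8.26% of its regions and 12.1% of its accessible bases. It held 60.0 regions per Mb, against 5.91 on the rest of the chromosome outside centromeric, variable and stalk bands. Regions covered 8.06% of the window and 0.510% of that rest. The median gap between neighbours was 1.76 kb within the locus and 56.3 kb between the other neighbours of the chromosome. Gaps under 1 kb made up 7 of 17 within the locus and 11 of 200 elsewhere. The locus lies in 21q21.3, a dark Giemsa band.

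**Figure D2:**
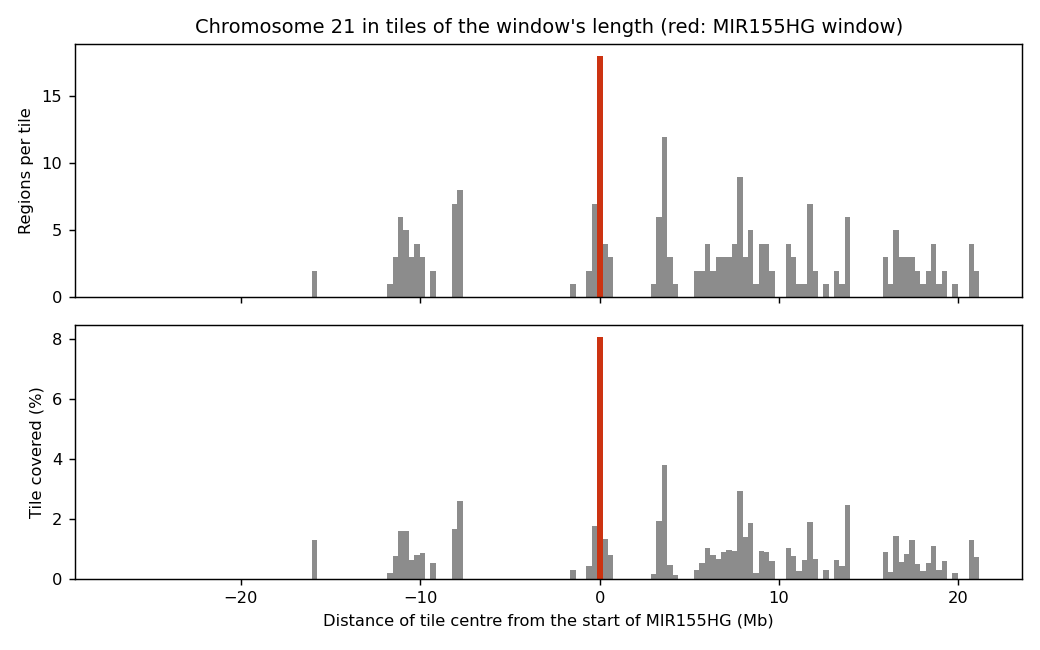
Number of regions (upper panel) and percent of bases inside regions (lower panel) in tiles of 300 kb laid end to end along chromosome 21 from the MIR155HG window, by distance of the tile from the start of the gene (x axis, Mb). The window (red) held 18 regions and was covered to 8.06%, and the highest other tile held 12 and was covered to 3.80%.

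Among the 159 other tiles of 300 kb on the chromosome, 61 held a region, with a median of 3 regions and 0.781% of bases covered. The highest held 12 regions and lies 3.62 Mb after the start of MIR155HG. With tiles of the gene's own length, 177 of 3694 other tiles held a region. In these the median coverage was 6.65% and the highest 51.9%, against 67.7% for MIR155HG. That highest tile adjoins the end of the gene and holds the broadest region, so it belongs to the same locus. The highest coverage of such tiles away from the locus is not given here. Tiles of 1 chromosome are not replicates, and the empty ones include gaps of the assembly.

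Width set the regions near the gene apart more than it did the locus as a whole. The median width was 928.5 bp at the locus and 772 bp on the rest of the chromosome. Regions of 2 kb or more numbered 3 of 18 at the locus, beside 3.21% of all regions of chromosome 21 (7 of 218), and all 3 lie between 3.7 and 19.8 kb from the start of the gene. The next 5 regions of the locus by width measured between 1022 and 1452 bp. The narrowest, of 493 bp, ranked 194 by width among the 218 regions of the chromosome.

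**Figure D3:**
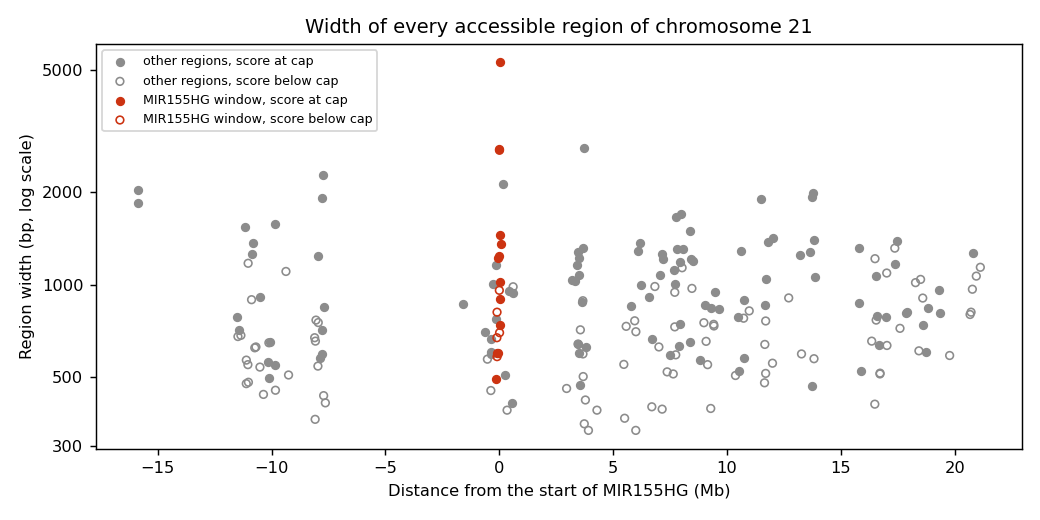
Width of each of the 218 regions of chromosome 21 (y axis, bp, log scale) by distance from the start of MIR155HG (x axis, Mb). Red points are the 18 regions of the window and grey points the others, filled where the score was at the cap of 1000 and open below it. The red point at 5301 bp stands above the next widest region of the chromosome, a grey point at 2781 bp.

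Groups of 3 regions of 2 kb or more within 20 kb were rare in the list. Such a group occurred at 2 places on chromosomes 1 to 22 and X. At MIR155HG the 3 regions measured 2743 to 5301 bp, or 10807 bp in all. The widest of them is the region by which the locus was chosen, and without it no such group is left there. At the other place, in 4q25 (chr4:113435171-113445900), they measured 2036 to 2139 bp, or 6245 bp in all.

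Joining regions at most 12500 bp apart put 8 regions of the locus in 1 cluster (chr21:26933843-26956105). It begins 614 bp before the start of MIR155HG and ends 8625 bp past its end. Of its span of 22.3 kb, 72.7% was inside regions, 16184 bp in all, which is 67.0% of the accessible bases of the window. The 8 regions had a median width of 1348 bp and the other 10 regions of the locus 705.5 bp.

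By accessible bases this was the first of 3946 clusters of at least 2 regions on chromosomes 1 to 22 and X, whose median was 1923 bp. The second, in 6p25.3, held 16106 bp in 11 regions over 66.5 kb, so that the first place rests on a difference of under 100 bp. The third, in 3q11.2, held 14263 bp. The MIR155HG cluster includes the region of 5301 bp by whose width the locus was chosen. Without that region the cluster would not be first by accessible bases. By number of regions 7 clusters held more than 8, and the most was 14. By the share of its span inside regions the MIR155HG cluster was the first of the 163 clusters of at least 5 regions, of which the second reached 60.6% and the median was 20.4%. On chromosome 21 the next cluster by accessible bases held 3895 bp. The cluster was the same with regions joined at 5 kb, where the next of 2672 clusters held 9310 bp. With joining at 25 kb it took in 10 regions and 17819 bp, and 3 clusters held more.

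**Figure D4:**
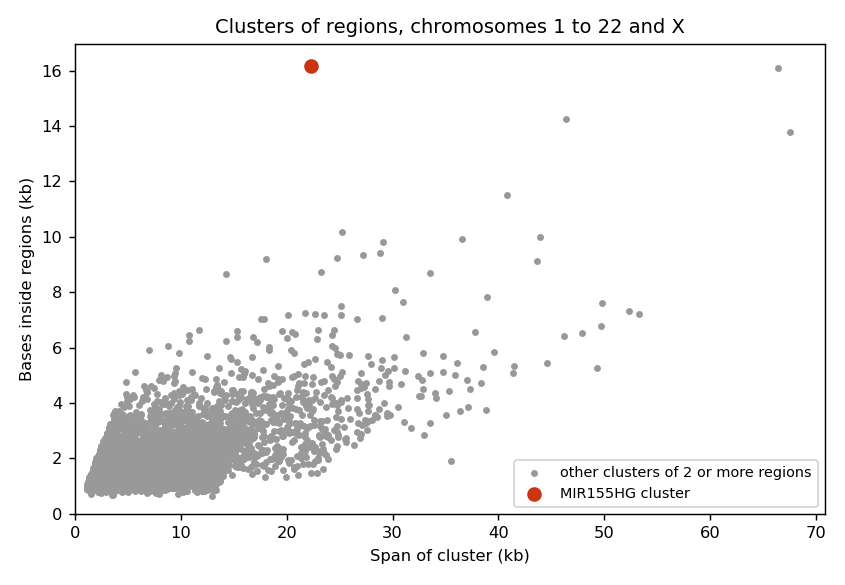
Span (x axis, kb) and bases inside regions (y axis, kb) of the 3946 clusters of at least 2 regions joined at 12500 bp on chromosomes 1 to 22 and X. The MIR155HG cluster (red) holds 16.2 kb in a span of 22.3 kb, and the cluster nearest to it in height spans 66.5 kb.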

How the data were processed

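ATAC-seq of 2 GM12878 replicates gave 1 deposited list of regions, with no counts. Depth and replicate error are therefore unknown, and no interval or test is given. The label of the list names IDR, a measure of agreement between replicates, and holds terms for filtering. These steps bear on which regions are listed and were not examined here. Per the submitters' processing notes, which give no roles, the tools included MACS2 2.1.0, BWA 0.7.13, bedtools 2.24.0, Trim Galore 0.3.3 and Picard 1.92, and the build was hg19. How region edges were set, and any shift of reads for the transposase, are not given in the sources used here, and both bear on widths. The deposited score has no named scale and was used only to describe regions within the list. Region starts were changed to count from 1.

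The members and lists were chosen with earlier results of these data known. The hg19 bounds of MIR155HG were given with the definition of the locus and not read from a deposited file. Regions were placed by midpoint, with a promoter of 1 kb each side of the gene start. The text names all 18 regions, those next to the window, the leading regions and clusters by width or covered bases, and the genes next in RefSeq order. Region numbers in the list ran from 12303 to 12320 across the window with 0 skipped. Chromosome length and bands came from circlize 0.4.16. Placing and joining were tested on simulated regions. Python 3.11.15, numpy 2.4.6, pandas 2.3.3 and matplotlib 3.10.9 were used.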

Additional observations from a re-analysis of the deposited data

How the results depend on the processing

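Of 22 other settings over 10 values, 15 kept the value the same, which for a count means within 1.5 times, and 7 moved it. By that rule the fall from 18 to 12 regions, with regions at the score cap only, counts as the same. The change in median width from 928.5 to 897 bp counts as moved, so values that are not counts were held to a tighter rule. The tally therefore mixes unlike rules and is not a measure of how stable the results are. The density depended on the size of the window, since regions crowd about the gene: 73.3 regions per Mb in a window of 150 kb (11 regions) and 38.3 in one of 600 kb (23 regions), against 60.0 in the window used. The covered share fell from 8.06% to 6.29% without the broadest region and to 5.90% with regions at the score cap only, of which there are 12. Without the broadest region the median width was 897 bp. With a promoter of 2 kb each side, or with placing by any overlap, the promoter held 2 regions in place of 1, and the gene body 4 in place of 5. Ties at the cap leave no stricter score threshold. No paired analysis was possible because both replicates share 1 group and 1 list, and for the same reason no replicate could be left out. Depth is unknown, so a stretch without a region is not called closed chromatin.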
